A study of Homo sapiens with 8 samples.

Results

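The kinetochore, the centromere it stands on and the spindle checkpoint were followed here as a set of 40 genes in a genome-wide CRISPRi growth screen of K562, a human leukemia cell line. The genes were taken by symbol from the names of the sgRNAs in the table of raw counts, in the promoter sets that the names call P1 or P1P2, and had to average 20 or more counts over the 8 libraries. For CENPA the separate P2 set was taken as well. This gave 208 sgRNAs for the 40 genes, out of 102987 targeting sgRNAs that reached this mean count. Before that minimum, 205280 targeting sgRNAs were listed for 18905 genes. The rule itself reads gene symbols and counts, and the list of genes was drawn up with earlier results of these data known.

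All cells expressed dCas9-KRAB, a catalytically inactive Cas9 joined to a repressor domain, which an sgRNA directs to a promoter so that transcription of that gene is lowered. They stably expressed either wild-type uL16, a protein of the large ribosomal subunit, or mutant uL16, and the labels used here do not describe the mutation. Every culture had received the sgRNA library and puromycin at 1 µg/ml for 3 days, and genomic DNA was sampled at day 0 and day 9, the latter after 10 doublings by the design text. That made 4 groups of 2 libraries: wild-type uL16 at day 0 and at day 9, and mutant uL16 at day 0 and at day 9. The question behind the design is which knockdowns change growth differently when the large subunit is defective. Nothing in the labels says that the 2 libraries of a group came from separate cultures, so p-values measure only the spread between these libraries, which may be technical. Counts of sgRNAs in genomic DNA carry no expression markers, and the labelled cell type was not checked against any.

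Library totals ran from 39233340 to 143585751 counts, and the median count per kept sgRNA from 331 to 1224. Libraries of a group correlated at 0.951 to 0.970 over genes (Pearson r of log2 CPM). The 1894 kept non-targeting control sgRNAs, which match no gene, had a median log2 change from day 0 to day 9 of 0.03 in both lines, with an SD over sgRNAs of 0.37 in wild-type and 0.35 in mutant cells. Levels are given as CPM, counts scaled by library total with TMM factors, which compares 1 gene between libraries and not one gene with another. A log2 change is the fitted change of the counts summed over the sgRNAs of a gene, day 9 against day 0, with its standard error (SE), from 2 libraries a group. A gene "fell" where edgeR's quasi-likelihood test gave an adjusted p under 0.05, with Benjamini-Hochberg adjustment over all 17547 genes tested.

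The kinetochore is the protein machine that ties each chromosome to the microtubules of the mitotic spindle. It is built on centromeric chromatin marked by the histone variant CENP-A, through a constitutive inner network (the CCAN) to an outer layer of the MIS12, KNL1 and NDC80 complexes, where NDC80 grips the microtubule. The chromosomal passenger complex, with the kinase Aurora B, destabilises faulty attachments, and the spindle checkpoint delays anaphase until every kinetochore is attached.

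Most of these knockdowns were lost from both lines during growth, and the extent ran from a near complete loss to no change at all. Of the 40 genes, 26 fell in wild-type cells, where 9.28% of all genes tested did, and 28 fell in mutant cells, where 9.07% of all genes did. The same 26 genes fell in both lines (7.49% of all genes), 2 more fell in mutant cells alone (CENPN and BUB1), 12 fell in neither and 0 rose. Over all 17547 genes, 277 fell in mutant cells alone, 315 in wild-type cells alone and 15641 in neither. CENPA is among the 12 by its P1 set, whose sgRNAs are all listed under a neighbouring gene too, so this count may not speak of CENPA itself. The median log2 change over the 40 genes was -0.65 in wild-type and -0.80 in mutant cells, against 0.01 in both lines over all genes. For 14 genes the fitted change lay below -1 in both lines, as it did for 2.9% of all genes. Counted by library, both day 9 values lay under both day 0 values for 33 of the 40 genes in each line, against 24.2% of all genes in wild-type and 24.5% in mutant cells.

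In centromeric chromatin the 2 sgRNA sets listed under a single gene differed: one did not change and the other fell. CENPA encodes the histone H3 variant that marks the centromere. The 5 sgRNAs of its P1 set summed to 138 and 139.9 CPM in the wild-type day 0 libraries and to 153 and 135 at day 9. In mutant cells they summed to 148 and 135 CPM at day 0 and to 144 and 139.8 at day 9. The groups overlapped, and the log2 changes were 0.05 (SE 0.07) and 0.01 (SE 0.07).

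The 5 sgRNAs of the P2 set of CENPA summed to 26.9 and 26.5 CPM in wild-type cells at day 0 and to 1.58 and 2.11 at day 9. In mutant cells the sums were 24.1 and 26.4 CPM at day 0 and 2.76 and 1.68 at day 9. Every day 9 library lay far below every day 0 library, with 6.92% of the day 0 level left in wild-type and 8.77% in mutant cells. The P2 set fell by 3.85 (SE 0.27, adjusted p = 6.93e-13 by edgeR) and by 3.58 (SE 0.26, adjusted p = 1.68e-12), and all 5 of its sgRNAs fell in both lines. Of all promoter sets of the library, 8.69% fell in wild-type and 8.49% in mutant cells, and of the 1395 P2 sets 1.43% and 1.15%. The changes of the P2 set in the lines differed by 0.27 (SE 0.37, adjusted p = 0.972).

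All 5 sgRNAs of the CENPA P1 set are also listed as the sgRNAs of SLC35F6, a neighbouring gene of the solute carrier 35 family, with the same counts, so the P1 values cannot be assigned to CENPA. By the positions in the sgRNA names, the P1 and P2 sets lie 21.4 kb apart. In the RefSeq table of GRCh38.p14, the lower ends of the SLC35F6 and CENPA gene spans on chromosome 2 are 21.8 kb apart. With every promoter set of a gene pooled, the change of CENPA in mutant cells was -0.21 (adjusted p = 0.0334), since the P1 counts make up most of the sum.

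Upstream sequence was read for these genes from the RefSeq promoter table (GRCh38.p14), in which 32 of the 40 matched by symbol, using the 250 bases before the annotated start. A pair of short elements known from late cell cycle promoters was searched on both strands: the CHR, as TTTGAA or TTCGAA and the reverse complement TTCAAA, and the CCAAT box, as CCAAT or ATTGG. A CHR was present in 7 of 32 (21.9%), against 14.3% of 35116 promoters in the table. A CCAAT box was present in 20 (62.5%, against 32.0%), and both in 6 (18.8%, against 5.05%). The 35116 are all entries of the table and not the genes of the screen alone, while each of the 32 genes was counted once. These shares were not tested against each other. Of the 21 matched genes whose P1 or P1P2 sgRNAs fell in both lines, 5 held a CHR and 11 a CCAAT box. Of the 11 others 2 held a CHR and 9 a CCAAT box. CENPA, which holds both elements, is among the 11 by its P1 set, though its P2 set fell in both lines. A match is a description of letters, not of a bound site. Shown 5′ to 3′, with matches in capitals, are CENPA, SPC25, AURKB and ZWINT. The set listed as P1 of CENPA did not change and its P2 set fell (chr2:26785806-26786055, plus strand). SPC25 and AURKB fell strongly (chr2:168890431-168890680 and chr17:8210226-8210475, both minus strand). ZWINT did not change (chr10:56361260-56361509, minus strand).
CENPA: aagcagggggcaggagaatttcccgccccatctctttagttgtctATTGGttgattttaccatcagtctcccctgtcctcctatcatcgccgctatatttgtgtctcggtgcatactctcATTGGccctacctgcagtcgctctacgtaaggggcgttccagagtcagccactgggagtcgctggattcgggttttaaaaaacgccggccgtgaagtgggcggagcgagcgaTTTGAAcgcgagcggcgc
SPC25: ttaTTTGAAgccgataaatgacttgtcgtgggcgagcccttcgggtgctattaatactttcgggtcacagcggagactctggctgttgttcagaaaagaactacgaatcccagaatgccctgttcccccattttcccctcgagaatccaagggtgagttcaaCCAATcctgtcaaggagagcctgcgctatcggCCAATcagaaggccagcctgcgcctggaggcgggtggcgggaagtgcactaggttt
AURKB: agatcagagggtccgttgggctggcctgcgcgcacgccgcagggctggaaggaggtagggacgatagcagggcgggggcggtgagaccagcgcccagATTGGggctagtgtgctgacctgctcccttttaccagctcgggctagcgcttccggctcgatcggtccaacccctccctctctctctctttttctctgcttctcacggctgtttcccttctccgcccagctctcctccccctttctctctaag
ZWINT: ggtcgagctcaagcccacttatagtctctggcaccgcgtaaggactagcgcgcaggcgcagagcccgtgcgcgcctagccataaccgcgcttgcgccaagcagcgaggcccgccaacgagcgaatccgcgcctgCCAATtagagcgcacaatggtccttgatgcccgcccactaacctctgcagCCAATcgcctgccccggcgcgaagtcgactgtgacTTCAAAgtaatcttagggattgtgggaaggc

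CENPA, SPC25 and ZWINT each hold 1 CHR and 2 CCAAT boxes in this window, and AURKB holds 0 CHR and 1 CCAAT box. Elements of both kinds thus stood upstream of genes at either end of the range of changes.

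The factors that load CENP-A divided. HJURP, the chaperone that deposits CENP-A, had 48.7 and 48.5 CPM in wild-type cells at day 0 and 7.94 and 13.1 at day 9, and 50.9 and 49.3 CPM against 13.1 and 8.25 in mutant cells. MIS18A, a subunit of the complex that licenses the centromere for loading, had 62.8 and 65.0 CPM against 17.9 and 19.1 in wild-type cells, and 68.4 and 61.0 against 21.3 and 19.7 in mutant cells. In both genes every day 9 library was lower than every day 0 library. HJURP fell by 2.21 (SE 0.19) and by 2.25 (SE 0.19), and MIS18A by 1.79 (SE 0.12) and by 1.66 (SE 0.12), with 5 of 5 MIS18A sgRNAs called lower in each line.

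OIP5, the partner subunit of MIS18A in that complex, behaved otherwise. Its sgRNAs had 40.7 and 47.9 CPM in wild-type cells at day 0 and 36.9 and 41.8 at day 9, and 46.7 and 45.9 against 50.3 and 48.4 in mutant cells. The groups overlapped in wild-type cells, and in mutant cells both day 9 values were the higher ones. The changes were -0.17 (SE 0.12, adjusted p = 0.459) and 0.09 (SE 0.12, adjusted p = 0.773), and 0 of 5 sgRNAs were called. All of them lie within 1 kb of sgRNAs of NUSAP1, whose changes were 0.11 (SE 0.12) and 0.31 (SE 0.12).

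The CCAN, the inner scaffold between centromeric nucleosomes and the outer kinetochore, was uneven: 4 of its 11 genes fell in wild-type and 5 in mutant cells, with medians of -0.25 and -0.33. CENPI, a subunit of the CENP-H/I/K/M module, had the largest fall of all 40 genes by summed P1 or P1P2 counts. The P2 set of CENPA fell further than CENPI in wild-type cells, by 3.85, and less far in mutant cells, by 3.58. CENPI had 33.5 and 30.8 CPM in wild-type cells at day 0 and 2.90 and 2.82 at day 9. In mutant cells it had 37.4 and 36.3 CPM against 2.82 and 2.00. Only 8.89% and 6.55% of the day 0 level was left, with no overlap between days. CENPI fell by 3.49 (SE 0.22, adjusted p = 3.95e-14 by edgeR) and by 3.98 (SE 0.23, adjusted p = 1.92e-15), and all 5 sgRNAs, which lie within 48 bp, were called lower in both lines.

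By summed counts, the partners of CENPI in the module did not follow to the same extent. CENPM fell by 1.60 (SE 0.15) and by 1.68 (SE 0.15). The median over its single sgRNAs was -4.07 and -3.91, further than the -3.52 and -3.74 of CENPI. The most abundant CENPM sgRNA, at 11.5 CPM on day 0, changed by -0.35 and -0.47. CENPK gave changes of -0.42 (SE 0.16, adjusted p = 0.0904) and -0.35 (SE 0.15, adjusted p = 0.206), and CENPH gave -0.10 (SE 0.16) and -0.33 (SE 0.15, adjusted p = 0.248). The CENPK sgRNAs lie within 1 kb of sgRNAs of PPWD1, a spliceosomal cyclophilin, which fell by 0.75 (SE 0.17) and by 0.70 (SE 0.17). A single CENPK sgRNA was called lower in both lines, at -2.37 and -1.98, and without the most abundant one CENPK passed the test in wild-type cells at -0.75. It also passed there with limma on mean log2 CPM (-0.81) and without wild-type day 9 replicate 2 (-0.71), and without wild-type day 9 replicate 1 it was -0.17.

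Of the histone-fold subunits, CENPT, which recruits NDC80 along a path of its own, fell by 1.02 (SE 0.12) and by 1.11 (SE 0.11), while CENPW, its partner, gave -0.18 (SE 0.10, adjusted p = 0.311) and -0.23 (SE 0.09, adjusted p = 0.155). CENPN, which reads the CENP-A nucleosome, gave -0.25 (SE 0.09, adjusted p = 0.0828) in wild-type cells and fell by 0.33 (SE 0.09, adjusted p = 0.0108) in mutant cells. That call was lost without mutant day 0 replicate 1, mutant day 0 replicate 2 or mutant day 9 replicate 1, where the values were -0.34, -0.33 and -0.23, and CENPN also passed in wild-type cells with DESeq2 (-0.25) and without its most abundant sgRNA (-0.53). The difference between the CENPN changes was -0.08 (SE 0.13, adjusted p = 0.979 by edgeR). All CENPN sgRNAs lie within 1 kb of those of CMC2, which gave 0.24 and -0.18, neither called. Of these CENPN sgRNAs, 2 are listed under CMC2 too, and the other 4 had medians of -0.71 and -0.45. CENPL, the partner of CENPN, had 89.1 and 85.4 CPM against 80.3 and 84.8 in wild-type cells. In mutant cells it had 93.5 and 78.1 against 87.8 and 79.5. The CENPL groups stood close together in wild-type cells, with both day 9 values lower, and overlapped in mutant cells, and the changes were -0.08 (SE 0.09) and -0.04 (SE 0.09).

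The CENP-O/P/Q subunits belong to a peripheral CCAN module that also carries CENP-U and CENP-R. CENPP fell by 0.66 (SE 0.12) in each line, but its sgRNAs lie within 1 kb of those of NOL8, a nucleolar protein of ribosome production, which fell by 0.95 (SE 0.15) and by 1.33 (SE 0.15). CENPO gave -0.07 (SE 0.10) and -0.05 (SE 0.10), and CENPQ gave 0.19 (SE 0.12, adjusted p = 0.437) and 0.05 (SE 0.12). CENPQ was the single gene whose day 9 libraries both lay above the day 0 libraries in wild-type cells, an order that 22.9% of all genes showed. Without its most abundant sgRNA, CENPQ rose by 0.51 in wild-type cells (adjusted p = 0.0280).

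In the MIS12 complex, which joins the inner to the outer kinetochore, 3 of 4 genes fell in each line. DSN1, the subunit through which Aurora B regulates binding to CENP-C, had 38.3 and 35.2 CPM in wild-type cells at day 0 and 5.27 and 5.22 at day 9, and 39.1 and 40.7 against 4.19 and 2.99 in mutant cells. No day 9 value came near a day 0 value, and the mutant day 9 values were the lowest. DSN1 fell by 2.81 (SE 0.20, adjusted p = 2.28e-13) and by 3.51 (SE 0.20, adjusted p = 2.18e-15), with 5 of 5 sgRNAs called lower in both lines.

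MIS12, which names the complex, had 40.05 and 38.2 CPM in wild-type cells at day 0 and 28.1 and 29.3 at day 9, and 38.9 and 38.2 against 20.3 and 22.6 in mutant cells. Its groups did not overlap in either line. MIS12 fell by 0.45 (SE 0.13, adjusted p = 0.0240) and by 0.84 (SE 0.13, adjusted p = 1.15e-05). The wild-type call was lost without wild-type day 0 replicate 1 or 2, wild-type day 9 replicate 1, or mutant day 0 replicate 1 or 2, at values from -0.48 to -0.41. All MIS12 sgRNAs lie within 1 kb of those of DERL2, a protein of the endoplasmic reticulum degradation pathway, which gave -0.24 (SE 0.12, adjusted p = 0.231) in wild-type cells and fell by 0.64 (SE 0.12) in mutant cells.

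PMF1, another subunit, fell by 0.90 (SE 0.07) and by 0.88 (SE 0.07). Of its 7 sgRNAs, 6 are also listed under BGLAP, the gene of osteocalcin, and under the read-through locus PMF1-BGLAP, and cannot be told apart from them. The sgRNA listed under PMF1 alone changed by -2.07 and -2.21. NSL1 gave -0.31 (SE 0.18, adjusted p = 0.360) and -0.44 (SE 0.18, adjusted p = 0.152).

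All 4 genes of the NDC80 complex, the rod that holds the microtubule, fell in both lines, with medians of -1.02 and -1.20. SPC25, at its centromeric end, had 28.6 and 26.5 CPM in wild-type cells at day 0 and 4.37 and 4.16 at day 9, and 28.6 and 33.3 against 3.10 and 4.45 in mutant cells. Days did not overlap, and SPC25 fell by 2.69 (SE 0.23) and by 3.00 (SE 0.23), with all 5 sgRNAs called lower in both lines. SPC24, its direct partner, fell by 0.84 (SE 0.18) and by 1.07 (SE 0.18). NDC80, which holds the microtubule-binding domain, fell by 1.12 (SE 0.14) and by 1.34 (SE 0.14). NUF2, which pairs with NDC80, fell by 0.92 (SE 0.15) and by 0.77 (SE 0.14).

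The sgRNAs of SPC24 differed among themselves. Of the 5 SPC24 sgRNAs, which lie within 34 bp, 4 were called lower in both lines, at -2.59 to -3.93 in wild-type and -1.95 to -4.99 in mutant cells. The remaining one, the most abundant at 12.4 CPM on day 0, changed by 0.17 and 0.09 and made up most of the day 9 sum. The median over the single sgRNAs was -2.60 and -3.05 for SPC24, and -3.54 and -4.42 for SPC25. A summed change weights each sgRNA by its abundance.

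Neither gene of the KNL1 complex fell. CASC5 is the older symbol of KNL1, the scaffold on which the BUB kinases gather, and gave -0.19 (SE 0.10, adjusted p = 0.263) and 0.03 (SE 0.10, adjusted p = 0.925). Yet 1 of its 5 sgRNAs was called lower in both lines, at -2.06 and -1.66, while the other sgRNAs ranged from -0.31 to 0.38 in wild-type and from -0.12 to 0.40 in mutant cells. ZWINT, the partner of KNL1, had 66.2 and 67.3 CPM in wild-type cells at day 0 and 64.0 and 70.5 at day 9, and 66.5 and 70.1 against 66.5 and 70.8 in mutant cells. Its groups overlapped fully, and the changes were 0.01 (SE 0.09) in each line, the smallest of the set.

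The SKA complex, which helps NDC80 track shortening microtubules, fell throughout but mildly by summed counts. Single SKA1 sgRNAs ran from -1.43 to -0.35 in wild-type and from -3.27 to -0.01 in mutant cells. Those of SKA3 ran from -2.30 to 0.40 and from -2.63 to 0.04, and those of SKA2 from -1.13 to -0.07 and from -0.78 to -0.03. SKA1 fell by 0.58 (SE 0.12) and by 0.75 (SE 0.12), and SKA3 by 0.65 (SE 0.11) and by 0.85 (SE 0.11). SKA2 fell by 0.50 (SE 0.11, adjusted p = 0.00177) and by 0.37 (SE 0.11, adjusted p = 0.0247). The SKA2 call was lost in mutant cells without any 1 of the 4 mutant libraries, without its most abundant sgRNA (-0.39) and with limma on mean log2 CPM (-0.33), and it was lost in wild-type cells without wild-type day 9 replicate 2 (-0.31). In mutant cells the values of SKA2 were then -0.40 to -0.35. SKA2 sgRNAs lie within 1 kb of those of PRR11 (0.17 and 0.12, neither called), and SKA3 sgRNAs within 1 kb of those of MRP63, a mitochondrial ribosomal protein gene that gave -0.34 (adjusted p = 0.0532) and fell by 0.42 in mutant cells.

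Of the proteins of the outer corona, CENPE, the kinesin that carries chromosomes to the spindle equator, fell by 1.62 (SE 0.23) and by 1.30 (SE 0.23). CENPF, a large coiled-coil protein that binds microtubules, fell by 0.44 (SE 0.12) and by 0.50 (SE 0.12). Its wild-type call was lost without wild-type day 0 replicate 2 (-0.35) or wild-type day 9 replicate 1 (-0.25).

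The chromosomal passenger complex fell as a whole. All 4 of its genes fell in both lines, with medians of -2.39 and -2.62. AURKB, the kinase Aurora B, had 34.2 and 31.2 CPM in wild-type cells at day 0 and 3.78 and 5.85 at day 9, and 26.3 and 29.3 against 2.88 and 4.10 in mutant cells. BIRC5, which encodes survivin, the subunit that reads a phosphorylated histone at the centromere, had 37.2 and 34.3 CPM against 6.76 and 4.80, and 29.8 and 32.8 against 5.55 and 7.10. In neither gene did any day 9 library reach a day 0 library. AURKB fell by 2.76 (SE 0.24) and by 2.96 (SE 0.24), and BIRC5 by 2.63 (SE 0.21) and by 2.29 (SE 0.20).

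INCENP, the scaffold that activates Aurora B, had 22.8 and 22.2 CPM in wild-type cells at day 0 and 5.81 and 4.29 at day 9, and 23.5 and 26.4 against 1.77 and 2.79 in mutant cells. Days did not overlap in either line, and both mutant day 9 values lay under both wild-type day 9 values. INCENP fell by 2.16 (SE 0.26, adjusted p = 5.68e-08) and by 3.40 (SE 0.28, adjusted p = 7.97e-12). CDCA8, which encodes borealin, fell by 0.89 (SE 0.13) and by 0.95 (SE 0.13). The most abundant CDCA8 sgRNA, at 24.1 CPM on day 0, changed by -0.38 and -0.51, while the median over its 5 sgRNAs was -2.53 and -1.73. CDCA8 sgRNAs lie within 1 kb of those of C1orf109, which gave -0.05 (SE 0.08) and 0.11 (SE 0.08).

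Among the checkpoint genes, 3 of 5 fell in wild-type and 4 of 5 in mutant cells. TTK, the kinase MPS1 that starts checkpoint signalling at unattached kinetochores, fell by 1.48 (SE 0.13) and by 1.40 (SE 0.12). BUB1B, which encodes the inhibitor BUBR1, fell by 0.97 (SE 0.10) and by 0.96 (SE 0.10). BUB3, the partner of BUB1 and BUBR1, fell by 0.43 (SE 0.11) and by 0.48 (SE 0.11). The BUB3 call was lost in wild-type cells without wild-type day 0 replicate 2 (-0.36) or wild-type day 9 replicate 1 (-0.30), and in mutant cells without mutant day 0 replicate 1 (-0.41).

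BUB1, the kinase that marks centromeric histone H2A, gave -0.29 (SE 0.10, adjusted p = 0.0524) in wild-type cells and fell by 0.45 (SE 0.10, adjusted p = 0.000924) in mutant cells. With scaling to the control sgRNAs or with DESeq2, BUB1 also passed in wild-type cells, at -0.33 and -0.29. That the call was made in a single line does not show that the lines differed: the difference between the BUB1 changes was -0.16 (SE 0.14, adjusted p = 0.938). MAD2L1, which encodes MAD2, the core of the inhibitor of the anaphase-promoting complex, gave -0.08 (SE 0.11, adjusted p = 0.785) and -0.17 (SE 0.11, adjusted p = 0.480), with 0 of 5 sgRNAs called. SGOL1, the older symbol of the shugoshin SGO1, which guards centromeric cohesion, fell by 1.25 (SE 0.26) and by 1.39 (SE 0.26).

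Single sgRNAs varied widely within genes. Of the 208, 94 were called lower in wild-type and 99 in mutant cells, where 5.17% and 5.04% of all 101421 sgRNAs were. Both lines shared 87 of these calls, 7 were made in wild-type and 12 in mutant cells alone, and 102 sgRNAs were called in neither. Over all 101421 sgRNAs, 4176 were called lower in both lines, 1068 in wild-type and 931 in mutant cells alone, and 95246 in neither. Every sgRNA was called lower in both lines for 5 genes (CENPI, DSN1, SPC25, BIRC5 and MIS18A), and none was called in either line for 8, counting P1 and P1P2 sgRNAs. CENPA is among the 8 by its P1 set, while all 5 of its P2 sgRNAs were called in both lines. Against the control sgRNAs, 98 of 208 lay below the lowest 2.5% of controls in both lines, as did 14 of 1894 controls. CASC5 and CENPK, called in neither line as genes, each had an sgRNA called in both. At day 0 the sgRNAs called lower in both lines had a median of 6.49 CPM and those called in neither 8.61. Over all sgRNAs the medians were 7.75 and 8.95. For these medians alone, CPM was scaled by the library total over the sgRNAs tested, without TMM factors. Whether the day 0 level had a part in the calls was not tested.

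Position within a promoter set went with the change in some genes and not in others, in examples chosen after their values were seen. Positions below are base pairs from the sgRNA with the lowest coordinate in the gene's set. The strand of the gene was not considered, so 0 bp can lie at either end of a promoter. For CENPM, the sgRNAs at 381, 415 and 418 bp changed by -5.20, -4.49 and -4.07 in wild-type cells, and those at 314 and 0 bp by -1.52 and -0.35. For CENPT, the sgRNAs at 405 and 411 bp changed by -2.64 and -3.40, and those at 0 and 17 bp by -0.17 and -0.11. The neighbouring CENPT sgRNA at 383 bp changed by -0.93 in wild-type and -2.90 in mutant cells. In CENPN the sgRNA at 448 bp changed by -3.28 and -2.93, the one at 529 bp by -1.04 and -0.92, and the other 4, spread from 0 to 884 bp, by -0.38 to 0.27 and -0.12 to 0.18. The CENPN sgRNAs at 0 and 44 bp are also listed under CMC2, a mitochondrial assembly gene. Elsewhere close neighbours parted: the CASC5 sgRNAs at 0 and 11 bp changed by -2.06 and -0.31 in wild-type cells, and the unmoved SPC24 sgRNA at 10 bp lies 3 bp from one that fell by 2.59.

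Neighbouring promoters were common in the set. For 15 genes every P1 or P1P2 sgRNA lies within 1 kb of an sgRNA of another gene, and for 25 genes none does. CENPA is among the 15, though its P2 sgRNAs have no such neighbour. Of the 15, 7 fell in wild-type and 8 in mutant cells, with medians of -0.42 and -0.37. Of the 25, 19 and 20 fell, with medians of -1.02 and -1.11. NDC80 was the largest fall among the 15 genes with such neighbours, and its neighbour METTL4 gave -0.13 (SE 0.10) and -0.13 (SE 0.09). PTRHD1 beside CENPO, MUT beside CENPQ and TATDN3 beside NSL1 were called in neither line. Which gene of such a pair an sgRNA acts on was not tested.

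Between the lines, the changes ran side by side. Over the 40 genes, the change in mutant cells correlated with that in wild-type cells at a Pearson r of 0.971, and over the 208 sgRNAs at 0.908. These are descriptions across genes and sgRNAs, which are not independent replicates, and both lines received the same sgRNA library. None of the 40 genes passed the test of the difference (0 of 40, against 0.0171% of all genes), and DESeq2 and limma on mean log2 CPM also called 0. At an unadjusted p under 0.05, 3 genes differed, 7.5% of the 40, where 5.68% of all genes did. Among single sgRNAs, edgeR called 0 of 208 (0.0% of all sgRNAs), and 15 had an unadjusted p under 0.05, 7.21% of the 208, where 5.10% of all sgRNAs did.

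The 3 genes with the smallest p were INCENP, DSN1 and MIS12, and all 3 had fallen further in mutant cells. For INCENP the difference, mutant minus wild-type, was -1.24 (SE 0.37, unadjusted p = 0.00197, adjusted p = 0.693). For DSN1 it was -0.70 (SE 0.27, unadjusted p = 0.0133, adjusted p = 0.865), and for MIS12 -0.39 (SE 0.19, unadjusted p = 0.0473, adjusted p = 0.874). DERL2, the neighbour of MIS12, gave a like difference of -0.40 (SE 0.16, unadjusted p = 0.0190 by edgeR, adjusted p = 0.865). The INCENP sgRNAs did not all move alike: at 0, 56 and 191 bp they changed by -2.60, 0.62 and -1.95 in wild-type and by -4.84, -1.28 and -3.77 in mutant cells, and at 13 and 66 bp by -4.72 and -3.47 against -4.60 and -2.84. With single libraries left out, the INCENP difference ranged from -1.66 to -0.99 and its adjusted p from 0.165 to 1.00, while the difference ranged from -0.93 to -0.44 for DSN1 and from -0.47 to -0.32 for MIS12. In simulated data the test of the difference called 30% of genes set to differ by 0.5 and 98% of those set to differ by 1, so most differences of 0.5 would be missed with this number of libraries. The SE of the difference was 0.37 for INCENP, which fell far in both lines, and 0.13 for ZWINT, which did not change. INCENP was not called at a difference of -1.24. Whether the 98% holds for genes that fell as far as INCENP was not tested.

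Other genes of the same machine, 25 kinetochore and checkpoint genes outside the set, were measured alongside, and the groups were not tested against each other. Of the 25, 9 fell in wild-type and 8 in mutant cells, 6 in both, and 0 rose, with medians of -0.18 and -0.13. In mutant cells the number was 4 without mutant day 0 replicate 1, 4 without mutant day 0 replicate 2, and 5 without mutant day 9 replicate 1. Among those with the smallest p in both lines were SPDL1, the adaptor that brings dynein to the corona (-1.92, SE 0.17, and -1.86, SE 0.17), and CENPC, which links CENP-A nucleosomes to the MIS12 complex (-1.35, SE 0.14, and -1.23, SE 0.13). PLK1, a mitotic kinase, was also among them, at -0.75 (SE 0.13) in wild-type and -0.91 (SE 0.13) in mutant cells.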

How the data were processed

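The counts are raw, not normalized, as the authors deposited them: a single table with an sgRNA in each line and 1 column for each of the 8 libraries. Per the file headers, the authors counted reads on a human CRISPRi v2 library, under a name that includes "trim_1_39_forward". The headers do not say what was trimmed. The submitters' processing notes name the build hg38. Which program counted the reads is not given in the sources. Of 209070 sgRNAs listed, 103686 (49.6%) had no count in any library. For the 40 genes 410 sgRNAs were listed: 198 had no count, 4 fell below the minimum and 208 were kept. Positions in the sgRNA names put 2059 of 18757 genes (11.0%) within 5 kb of their RefSeq gene (GRCh38.p14), and therefore refer to a different build, so spacings alone are given. Of the 40 symbols, 38 are current there and 2 are older (CASC5 for KNL1, SGOL1 for SGO1).

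Counts were summed per gene over P1 or P1P2 sgRNAs with a mean count of at least 20, for genes with at least 3 of them; sets named by transcript were left out. In R 4.3.3, edgeR 4.0.16 fitted 1 mean per group over all 8 libraries (TMM, glmQLFit and glmQLFTest, two-sided) with contrasts for each line and for their difference, and Benjamini-Hochberg adjustment over 17547 genes at a threshold of 0.05. Single sgRNAs (101421) and promoter sets (18942) were tested likewise. The SE was taken from the change and its F statistic. On simulated data with all sgRNAs of a gene changed alike, the wild-type test called 76% of genes changed by 0.5 and 100% of those changed by 1, and 12 of 17347 unchanged genes. Alternatives were scaling to control sgRNAs, RLE size factors, DESeq2 1.42.0, limma 3.58.1 on mean log2 CPM (prior count 2), other count filters, other sgRNA choices, replicate blocks and leaving out each library. Those for the CENPA P2 set were added after seeing the data.

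The genes, the lists and the tests were chosen with earlier results of these data known. All 40 genes are named. Library values are given for the 6 largest and 4 smallest changes and the 3 smallest p of the difference, with HJURP and MIS18A added beside OIP5 after their values were seen. Neighbours within 1 kb are named, and up to 4 other kinetochore genes with the smallest p. Some genes that this rule names are not reported here. The reads carry no molecular identifiers, and PCR copies of a molecule are counted apart, so depth bears on counting error only.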

Additional observations from a re-analysis of the deposited data

How the results depend on the processing

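The number of members that fell was 26 to 29 in wild-type and 27 to 30 in mutant cells over the alternatives that kept all 40 genes, and 19 and 20 of the 25 genes that had sgRNAs away from other genes. With each library left out in turn it was 23 to 28 and 25 to 28. The difference between lines gave 0 under every alternative run, with libraries left out included. Of the single sgRNAs, 71 to 98 were lower in wild-type and 78 to 107 in mutant cells with a library left out, and the P2 set of CENPA gave -4.08 to -3.66, -3.91 to -3.19 and, for the difference, -0.07 to 0.66. A single value turned its sign and passed the test: CENPA in mutant cells was -0.21 with all promoter sets pooled, which adds its P2 set. For single genes, 2274 other comparisons kept their direction and side of the threshold, 20 gained the call and 20 lost it. NSL1 (-0.44) and CENPW (-0.23) passed in mutant cells with DESeq2, CENPH (-0.64) in mutant cells without its most abundant sgRNA, and CASC5 (-0.44) in wild-type cells with limma. Deviations from the group means of libraries with the same replicate number correlated at -0.00810 to 0.0442. The pairs within a line, day 0 with day 9, gave 0.0165 in wild-type and 0.0442 in mutant cells. Values this small do not settle whether libraries of the same number share a culture. With the replicate block over all libraries, 26 and 28 members fell and 0 differed, and with the block within each line 27, 28 and 0, CENPK passing in wild-type cells (-0.44). Depth limits the loss that can be seen: at day 9 the rarest sgRNAs rest on few counts.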
